A study of Mus musculus with 4 samples.

Results

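Nox4 and 9 antioxidant enzyme genes were examined in mouse DFAT cells, fibroblast-like cells derived from fat cells that have shed their lipid. They were Nox4, Sod1, Sod2, Sod3, Cat, Gpx1, Gpx3, Gpx4, Prdx1 and Hmox1, listed by name and read through every probe set (a group of short probes for 1 transcript) whose annotation held that gene symbol alone. In all, 9 of the 10 genes were found, with 20 of 45101 probe sets, or 9 of 18193 genes on the array. Prdx1 was left without a value, because its 5 probe sets are annotated to a further gene, Gm21399, as well. The set was selected on measured values, the Nox4 signal that lies lower with Mkl1 siRNA and differs between the control arrays, so Nox4 in those comparisons is described without a test.

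The study hybridised total RNA of DFAT cells, grown in Dulbecco's medium with fetal bovine serum, to 4 single-colour Affymetrix arrays. One array held cells treated with Y-27632, an inhibitor of the ROCK kinases that drive actomyosin contraction, and another held cells transfected with an siRNA against Mkl1, which binds actin and assists the transcription factor SRF. The references were cells transfected with control siRNA and cells given the solvent DMSO. The labels give no dose, duration, siRNA sequence, mouse strain or age, and do not say whether the 4 cultures came from 1 preparation of cells. Each group had 1 array, so there is no replicate error, p-values cannot be had, and precision is limited by the number of arrays.

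NOX4 is an NADPH oxidase, a membrane enzyme that passes electrons from NADPH to oxygen and releases mostly hydrogen peroxide. Unlike its phagocyte relative it is active without a stimulus, so its output follows its amount, and in fibroblasts and preadipocytes it is known as an oxidase induced by TGF-beta and linked to insulin signalling. Superoxide dismutases turn superoxide into hydrogen peroxide, and catalase, glutathione peroxidases and peroxiredoxins remove the peroxide. Hmox1 encodes haem oxygenase, which breaks down haem and is a classic target of the oxidant-sensing factor NRF2.

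Promoter letters are shown for Nox4, which differed most, and for Cat and Sod2, the enzyme genes that stood highest with Mkl1 siRNA relative to control siRNA. Each line gives the 250 bases before the RefSeq start, 5′ to 3′ on the gene's strand, from assembly GRCm38.p6. The windows are chr7:87246399-87246648 on the plus strand for Nox4, chr2:103485154-103485403 on the minus strand for Cat and chr17:13007589-13007838 on the plus strand for Sod2. Capitals mark GGGCGG, the core of the GC box.
Nox4: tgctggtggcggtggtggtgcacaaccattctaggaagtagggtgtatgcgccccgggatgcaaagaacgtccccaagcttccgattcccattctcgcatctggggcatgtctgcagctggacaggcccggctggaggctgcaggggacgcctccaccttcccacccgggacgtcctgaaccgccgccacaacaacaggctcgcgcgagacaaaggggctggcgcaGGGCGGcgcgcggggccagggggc
Cat: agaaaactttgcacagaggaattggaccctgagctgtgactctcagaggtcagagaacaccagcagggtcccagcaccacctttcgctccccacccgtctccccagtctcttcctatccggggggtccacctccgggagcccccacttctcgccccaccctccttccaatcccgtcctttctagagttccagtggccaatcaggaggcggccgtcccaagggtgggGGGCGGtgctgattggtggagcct
Sod2: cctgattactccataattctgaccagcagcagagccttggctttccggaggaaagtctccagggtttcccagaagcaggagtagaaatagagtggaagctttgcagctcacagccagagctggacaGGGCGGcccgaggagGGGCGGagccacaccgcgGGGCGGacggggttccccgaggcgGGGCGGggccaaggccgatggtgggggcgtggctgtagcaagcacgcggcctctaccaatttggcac
Nox4 and Cat held 1 GGGCGG each and Sod2 held 4, and 32.7% of 32851 windows of the same length, several of them from the same gene, held at least 1 on either strand.

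A search of both strands covered the 11 windows of the 8 listed genes in the RefSeq promoter table. Sod3 and Hmox1 are not among them. GGGCGG was in 9 of the 11 windows and in 7 of the 8 genes, the nearly level Sod1 and Gpx4 included, beside 32.7% of all windows. The CArG box, the element that SRF binds, was in none of the 11 windows, against 1.47% of all windows. TGACNNNGC, the core of the antioxidant response element, was in the Sod1 and Prdx1 windows and in 10.2% of all windows. TGANTCA, the AP-1 element, was in the Prdx1 window, where 1 of its places overlapped TGACNNNGC, and in 6.75% of all windows. A match is only a description of the letters, and no match says nothing about binding.

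All signals are log2 values made by the authors with RMA, and a difference of 1 is 2-fold. A gene was analysed if at least 1 array reached 5.69, the overall median signal, which left 11600 genes and all 9 genes with a value. Mrtfa, the present symbol of Mkl1, had a log2 signal of 7.70 with Mkl1 siRNA and 8.55 with control siRNA, a difference of -0.85 on its 1 probe set. Its log2 signal was 8.18 with Y-27632 and 8.32 with DMSO. As a check of the cell label, all 8 fibroblast and mesenchymal markers (Col1a1, Col1a2, Col3a1, Pdgfra, Pdgfrb, Thy1, Vim, Dcn) and all 8 measured fat cell markers passed that filter. Among the latter, Cidec passed it through the treated arrays alone, with 5.19 on control siRNA and 5.61 on DMSO. Cd36 was under it with DMSO, at 5.48. Of 10 macrophage and leukocyte markers 3 passed (Csf1r, Lyz2, Cd14), while the defining genes Ptprc, Adgre1, Itgam and Cybb were under it on every array. Of 6 endothelial markers only Kdr passed. Both measured red blood cell markers were under it.

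Nox4 was high on the control siRNA array and low on the other arrays. Its stronger probe set, 1451827_a_at, had log2 signals of 6.78 with Y-27632, 7.24 with Mkl1 siRNA, 9.48 with control siRNA and 7.46 with DMSO. The second probe set, 1419161_a_at, read 5.75 with Y-27632, 5.65 with Mkl1 siRNA, 7.23 with control siRNA and 6.09 with DMSO. Both placed control siRNA first and DMSO next, and disagreed on which of the treated arrays was lowest.

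Relative to its own control, Mkl1 siRNA put Nox4 at -2.24, a ratio of 0.212, on the stronger probe set and at -1.58 on the other. Only 9 of 11600 genes lay lower in that comparison, in which 3.53% of genes were at least 2-fold apart. Relative to DMSO, whose label names no transfection, the Mkl1 siRNA array stood at -0.22 and -0.44, short of 2-fold on both probe sets. The difference therefore depended on which control array was used.

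The control siRNA array exceeded DMSO by 2.02 and 1.14 for Nox4, ratios of 4.06 and 2.21. Of 11600 genes, 13 were higher between the control arrays, where 2.04% of genes were at least 2-fold apart. With Y-27632, Nox4 differed from DMSO by -0.68 and -0.34, ratios of 0.623 and 0.791. That is short of 2-fold, but 95 genes of 11600 lay lower, and 1.49% of genes were at least 2-fold apart. Against control siRNA the Y-27632 array stood at -2.70 and -1.48, and 2 genes lay lower, with 2.78% of genes at least 2-fold apart. That comparison includes the difference between the control arrays on which the set was selected, so its rank is no separate result.

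**Figure D1:**
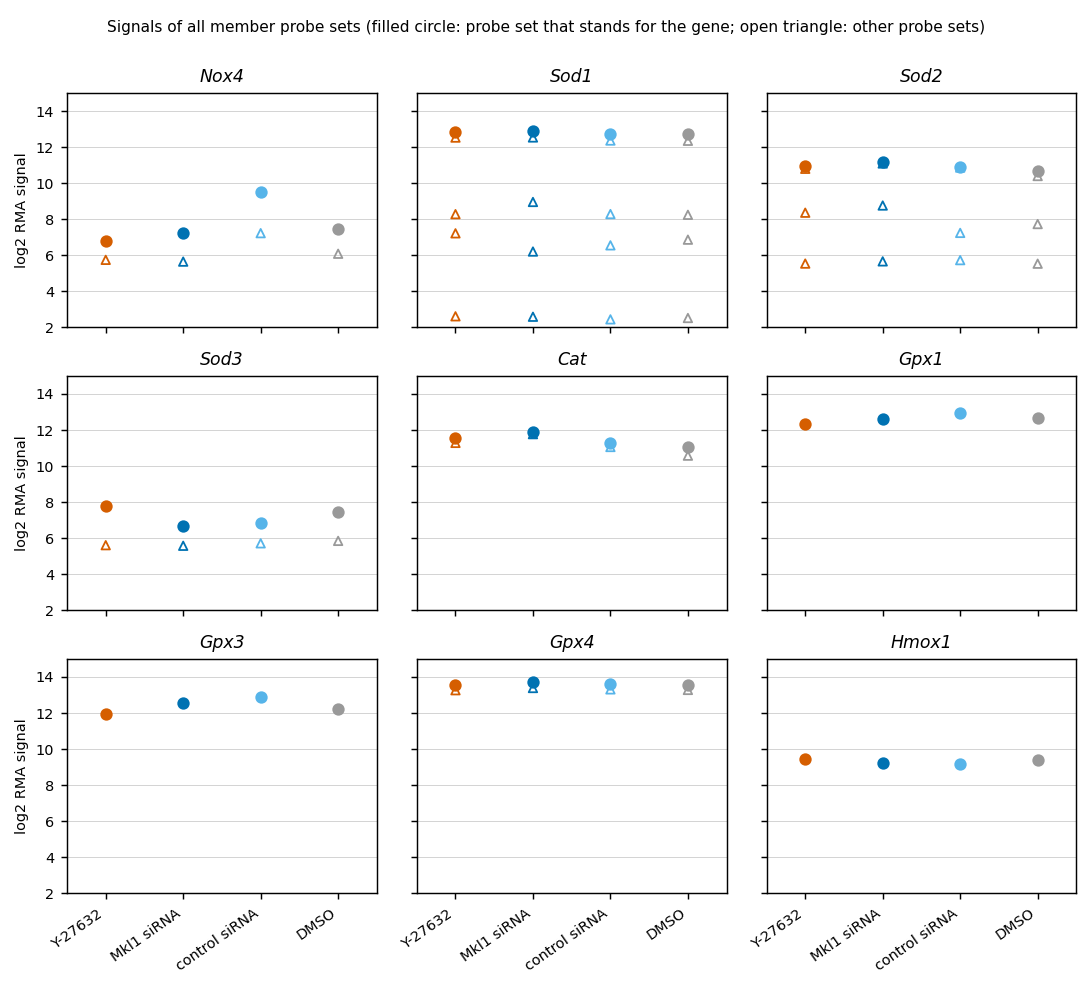
Log2 RMA signal (y axis) of the 20 probe sets of 9 genes on each of the 4 arrays (x axis), 1 array per group, with a filled circle for the probe set that stands for the gene and open triangles for its others. Both Nox4 probe sets peak with control siRNA, at 9.48 and 7.23, while Gpx4 is nearly level on all 4 arrays. Heights of different probe sets are not comparable.

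None of the 8 enzyme genes reached 2-fold on the probe set that stands for it, in any of the 3 comparisons. In the count over all 9 genes, 0 were at least 2-fold apart with Y-27632, where 1.27% of all genes were higher and 0.224% lower by that much. Nox4 was the 1 gene with Mkl1 siRNA, where 1.79% of all genes were higher and 1.74% lower, and the 1 gene between the controls, where 0.957% were higher and 1.09% lower. The median of the 9 genes was 0.07 with Y-27632, 0.02 with Mkl1 siRNA and 0.19 between the controls, beside 0.002, 0.001 and -0.01 over all 11600 genes.

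Catalase, the peroxisomal enzyme that splits hydrogen peroxide, was higher in both treatments. The probe set 1416429_a_at had 11.55 with Y-27632, 11.90 with Mkl1 siRNA, 11.26 with control siRNA and 11.06 with DMSO on the log2 scale. The probe set 1416430_at gave 11.29 with Y-27632, 11.77 with Mkl1 siRNA, 11.06 with control siRNA and 10.58 with DMSO. Both probe sets placed the arrays in that same order, with Mkl1 siRNA highest, then Y-27632, control siRNA and DMSO. The Y-27632 difference from DMSO was 0.49 and 0.71, and the Mkl1 siRNA difference from control siRNA was 0.64 and 0.71. Between the controls Cat differed by 0.20 and 0.48, so that Mkl1 siRNA stood above DMSO by 0.84 and 1.19, the second of which is past 2-fold. On the probe sets that stand for the genes, 0 of the 9 genes reached 2-fold in that comparison, beside 5.97% of all genes. At least this far from 0 were 6.12% of all genes with Y-27632 and 9.38% with Mkl1 siRNA, for the first probe set.

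Fat cell markers were higher on the same arrays. All 8 were above the control in both treatments, 7 of them at least 2-fold each time. Over all genes, 50.4% with Y-27632 and 50.1% with Mkl1 siRNA were above 0, and 1.27% and 1.79% were at least 2-fold higher. The second probe set of Lipe went the other way, at -0.16 with Y-27632 and -0.25 with Mkl1 siRNA. The summed linear signal of the 8 markers was 34405 with Y-27632, 38501 with Mkl1 siRNA, 8800 with control siRNA and 9109 with DMSO. Their part in the Cat values was not tested, and in bulk RNA more cells of a type and more RNA per cell cannot be told apart. Smooth muscle markers went the other way, with 5 of 6 genes past the filter below DMSO with Y-27632 and 6 of 6 below control siRNA with Mkl1 siRNA, Myh11 being under the filter. They had a summed linear signal of 18572 with Y-27632, 20174 with Mkl1 siRNA, 33964 with control siRNA and 28963 with DMSO. The stronger Nox4 probe set ranked the arrays in the same order as the smooth muscle sum, and the weaker one in the reverse order of the fat cell sum. On the weaker one both treated arrays lay near the filter. Such sums are weighted towards the strongest genes. Between the controls, 3 smooth muscle genes were above 0 and 3 below (median 0.07), and 3 fat cell genes above and 5 below (median -0.08). Smtn was highest with Y-27632, at 8.18. Of the 8 fibroblast and mesenchymal markers, 7 were below control siRNA with Mkl1 siRNA (median -0.32, Col1a1 at -1.05), and Dcn stood at -2.07 between the controls. Their summed linear signal was 100676 with Y-27632, 75642 with Mkl1 siRNA, 92437 with control siRNA and 96010 with DMSO. The part of these 3 marker lists in the Nox4 values was not tested.

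Among the superoxide dismutases, Sod1, the copper-zinc enzyme of the cytosol, was nearly level. Its strongest probe set had log2 signals of 12.86 with Y-27632, 12.92 with Mkl1 siRNA, 12.75 with control siRNA and 12.73 with DMSO, differences of 0.14, 0.17 and 0.02 in the order Y-27632, Mkl1 siRNA and controls. The probe set 1459976_s_at gave like differences of 0.18, 0.17 and 0.01. The weaker 1435304_at and 1440222_at went opposite ways with Mkl1 siRNA, at 0.67 and -0.34. The fifth, 1447761_x_at, read 2.45 to 2.62 and was under the filter on every array.

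Sod2, the manganese enzyme of mitochondria, was somewhat higher in both treatments. Its strongest probe set had 10.96 with Y-27632, 11.18 with Mkl1 siRNA, 10.87 with control siRNA and 10.68 with DMSO. The differences were 0.28 with Y-27632, 0.31 with Mkl1 siRNA and 0.19 between the controls. The probe set 1454976_at departed from this, with 8.36 with Y-27632, 8.76 with Mkl1 siRNA, 7.24 with control siRNA and 7.73 with DMSO. Its Mkl1 siRNA difference of 1.52 is past 2-fold, whereas the other Sod2 probe sets gave -0.07, 0.23 and 0.31. Between the controls it also ran against them, at -0.49 against 0.19 to 0.47.

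Sod3, the secreted dismutase of the extracellular matrix, was low on both transfected arrays. Its log2 signals were 7.80 with Y-27632, 6.67 with Mkl1 siRNA, 6.82 with control siRNA and 7.45 with DMSO. The difference was 0.35 with Y-27632, -0.16 with Mkl1 siRNA and -0.62 between the controls. Against control siRNA the Y-27632 array stood at 0.98. The second probe set had 5.62 with Y-27632 and 5.85 with DMSO, the opposite direction, and lay near the filter on all arrays.

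Among the glutathione peroxidases, Gpx1 and Gpx3 were lower in both treatments and Gpx4 was nearly level. Gpx1, the cytosolic form, had log2 signals of 12.36 with Y-27632, 12.62 with Mkl1 siRNA, 12.94 with control siRNA and 12.67 with DMSO. It lay below its own control by the same -0.31 in both treatments, and above DMSO by 0.27 with control siRNA. Gpx3, the secreted plasma form, had 11.95 with Y-27632, 12.54 with Mkl1 siRNA, 12.89 with control siRNA and 12.20 with DMSO. Its differences were -0.25 with Y-27632, -0.36 with Mkl1 siRNA and 0.70 between the controls.

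Both Gpx1 and Gpx3 were highest with control siRNA and lowest with Y-27632, as Nox4 was on its stronger probe set. Against DMSO the Mkl1 siRNA array stood at -0.04 for Gpx1 and 0.34 for Gpx3, so Gpx3 changed side with the control array. Gpx4, which reduces lipid hydroperoxides in membranes, had 13.56 with Y-27632, 13.69 with Mkl1 siRNA, 13.62 with control siRNA and 13.58 with DMSO, and its second probe set differed by the same -0.02 and 0.08 in the treatments. Gpx4 thus varied by less than 0.172, the typical absolute difference of a gene between the control arrays (the median over 11600 genes).

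Hmox1 was nearly level relative to its own control in both treatments. Its log2 signals were 9.45 with Y-27632, 9.21 with Mkl1 siRNA, 9.19 with control siRNA and 9.37 with DMSO. The differences were 0.07 with Y-27632 and 0.02 with Mkl1 siRNA. Between the controls it differed by -0.18, larger than either.

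**Figure D2:**
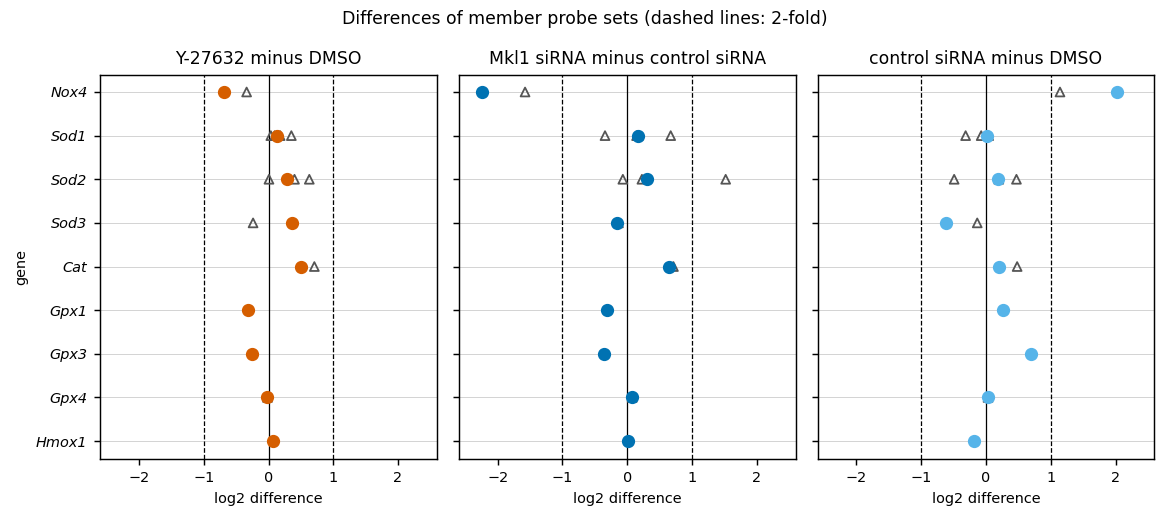
Log2 difference (x axis) of every probe set of the 9 genes (y axis), in 3 comparisons of 1 array each, with filled circles for the probe set that stands for the gene, open triangles for others and dashed lines at 2-fold. Nox4 lies at -2.24 with Mkl1 siRNA and at 2.02 between the controls, and 1 Sod2 probe set reaches 1.52 with Mkl1 siRNA.

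The genes whose pattern lay nearest to that of Nox4 were found by the Euclidean distance between the 4 log2 signals, each gene centred on its own mean. The 6 nearest were Cyp11b1 at 0.66, Smoc2 at 0.79, P4ha3 at 0.79, Serpinb1a at 0.85, Lgr6 at 0.88 and Gas2 at 0.90, against a median distance of 2.10 over all genes. Cyp11b1, known as a steroid hydroxylase of the adrenal cortex, had 4.14 with Y-27632, 4.79 with Mkl1 siRNA, 6.17 with control siRNA and 4.51 with DMSO. It passed the filter through the control siRNA array alone. Smoc2, a calcium-binding matrix protein, had 8.76 with Y-27632, 9.45 with Mkl1 siRNA, 10.65 with control siRNA and 9.42 with DMSO.

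P4ha3, a subunit of the collagen prolyl hydroxylase, differed by -1.43 with Mkl1 siRNA and by 1.35 between the controls. The protease inhibitor Serpinb1a differed by -1.82 and 1.44 in the same comparisons. Lgr6, a receptor for R-spondins, differed by -1.24 and 1.43. Gas2, a protein that binds actin filaments and microtubules, differed by -1.30 and 1.17, but its second probe set stood at -0.07 with Mkl1 siRNA. All 6 were highest with control siRNA, which follows from choosing them for nearness to Nox4. The swing of each was smaller than that of Nox4. With 4 arrays, this likeness is a description.

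**Figure D3:**
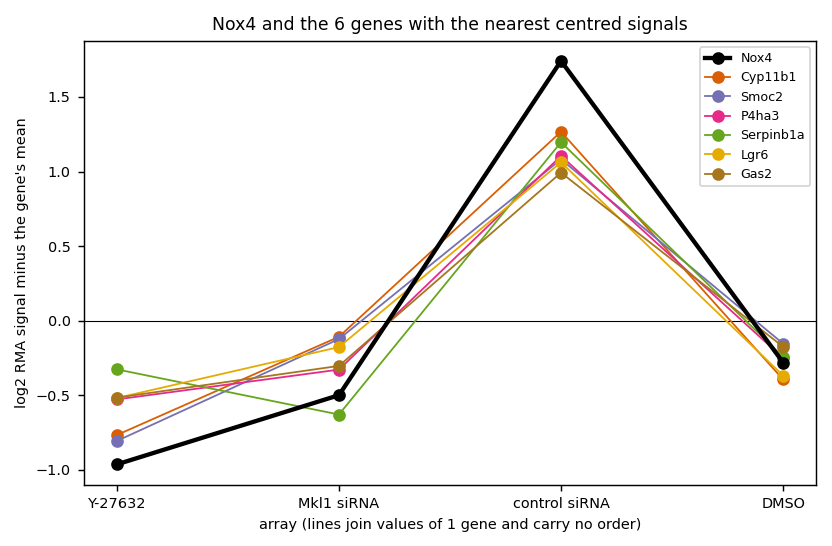
Log2 RMA signal minus the gene's own mean (y axis) on the 4 arrays (x axis) for Nox4 (thick black line) and the 6 genes nearest to it, each line joining 1 gene's values. All 7 peak with control siRNA, Nox4 at 1.74 and the others between 0.99 and 1.27, which follows from the choice by nearness.

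The remaining genes of the redox pathways were described through 6 lists of textbook members, chosen with earlier results of these data known. Of 19 NADPH oxidase and dual oxidase genes and partners 14 had a value and 8 passed the filter, and Nox4 alone was at least 2-fold apart in the Mkl1 siRNA and control comparisons. The shares over all genes were 3.53% and 2.04% in that order. Cyba, the membrane partner that NOX4 needs, had log2 signals of 9.76 with Y-27632, 9.82 with Mkl1 siRNA, 10.04 with control siRNA and 9.87 with DMSO. It differed by -0.11 with Y-27632, -0.22 with Mkl1 siRNA and 0.17 between the controls, small steps on the same sides as Nox4. Poldip2, which binds that complex, differed by 0.17, 0.33 and -0.10, the opposite sides, and the GTPase Rac1 by -0.09, -0.09 and 0.02. Cybb, the phagocyte oxidase, and Duox1 were under the filter on every array.

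The list of other peroxidases and dismutase partners had 7 genes past the filter, none of them at least 2-fold apart. Over all genes that share was 1.49% with Y-27632, 3.53% with Mkl1 siRNA and 2.04% between the controls. Prdx2 and Prdx4, peroxiredoxins of the cytosol and the endoplasmic reticulum, differed by -0.24 and 0.25 with Mkl1 siRNA. Gpx8, a peroxidase of the endoplasmic reticulum, differed by 0.21 with Mkl1 siRNA and by 0.51 between the controls. With Mkl1 siRNA the members furthest from 0 were Gpx7, a further peroxidase of the endoplasmic reticulum, at -0.68, and Prdx3, the mitochondrial peroxiredoxin, at 0.41. The median of the list was 0.11 with Y-27632, -0.11 with Mkl1 siRNA and 0.18 between the controls.

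Of the 13 glutathione synthesis and recycling genes past the filter, 9 were above 0 and 4 below with Mkl1 siRNA, and none reached 2-fold. Over all genes 50.1% were above 0 and 3.53% were at least 2-fold apart. The median of the 13 was 0.39 in that comparison, beside 0.16 with Y-27632 and 0.25 between the controls. Gclc, the catalytic subunit of the rate-limiting enzyme of glutathione synthesis, had log2 signals of 9.41 with Y-27632, 10.59 with Mkl1 siRNA, 9.62 with control siRNA and 9.25 with DMSO. Its Mkl1 siRNA difference was 0.98, and 1.11 on its second probe set. Gclm, its modifier subunit, had 10.10 with Y-27632, 11.08 with Mkl1 siRNA, 10.39 with control siRNA and 10.06 with DMSO, a Mkl1 siRNA difference of 0.69. Gsr, which regenerates glutathione, differed by 0.57 with Mkl1 siRNA and by -0.07 with Y-27632. On the lower side with Mkl1 siRNA were Chac2, which degrades glutathione, at -0.72, and the transpeptidase family member Ggt5 at -0.36.

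For both Gclc and Gclm the Mkl1 siRNA array was the highest of the 4, and it was 1.34 and 1.01 above DMSO. In that comparison 5.97% of all genes were at least 2-fold apart. Chac1, which degrades glutathione, was low on both transfected arrays. Its log2 signals were 8.27 with Y-27632, 7.25 with Mkl1 siRNA, 7.29 with control siRNA and 8.87 with DMSO. It was the 1 gene of the list at least 2-fold lower between the controls, at -1.58, where 1.09% of all genes were that much lower. With Mkl1 siRNA it differed by -0.04.

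In the thioredoxin system, 1 of 17 genes was at least 2-fold apart with Mkl1 siRNA, and 0 with Y-27632 or between the controls. Of all genes, 3.53% were that far apart with Mkl1 siRNA, 1.49% with Y-27632 and 2.04% between the controls. This was Txnip, which binds and inhibits thioredoxin, with 11.998 with Y-27632, 11.38 with Mkl1 siRNA, 12.43 with control siRNA and 12.12 with DMSO. It stood at -1.05 with Mkl1 siRNA, and its second probe set at -1.23. Relative to DMSO the difference was -0.73, short of 2-fold. Txn1, thioredoxin itself, differed by 0.05 with Mkl1 siRNA and its reductase Txnrd1 by 0.45, with Txnrd1 probe sets from -0.01 to 0.45.

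Of 23 measured genes of the NRF2 route past the filter, 2 were at least 2-fold higher with Y-27632, 2 with Mkl1 siRNA and 1 between the controls, and 0 were 2-fold lower. The shares of all genes at least 2-fold higher were 1.27%, 1.79% and 0.957% in that order. Above 0 were 12 of the 23 with Y-27632, 13 with Mkl1 siRNA and 21 between the controls. Over all genes 50.4%, 50.1% and 48.5% were above 0. The list median was 0.008 with Y-27632, 0.09 with Mkl1 siRNA and 0.37 between the controls, so the list as a whole differed most between the control arrays. The factor itself, Nfe2l2, differed by 0.18 under Y-27632 and 0.17 under Mkl1 siRNA, and on its second probe set by 0.44 and 0.78. Its inhibitor Keap1 differed by -0.04 under Y-27632 and by 0.0006 under Mkl1 siRNA. Gsta3, a glutathione transferase, had 5.49 with Y-27632, 8.34 with Mkl1 siRNA, 6.16 with control siRNA and 4.65 with DMSO. It was 2.18 higher with Mkl1 siRNA and 1.51 higher between the controls, and its second probe set stood at 0.9999 and 0.36. The Gsta3 signal with Y-27632 and DMSO was under the filter.

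Mgst2, a membrane-bound glutathione transferase, was higher in both treatments. Its log2 signals were 8.38 with Y-27632, 8.91 with Mkl1 siRNA, 7.53 with control siRNA and 7.08 with DMSO, differences of 1.31 and 1.38. Mgst3, of the same family, had 11.54 with Y-27632, 12.19 with Mkl1 siRNA, 11.29 with control siRNA and 10.43 with DMSO. It was 1.11 higher with Y-27632, 0.91 with Mkl1 siRNA and 0.86 between the controls. Its second probe set stood at 0.46, 0.56 and 0.27 in the same order, short of 2-fold with Y-27632 as well. Mgst3 with Y-27632 was 0.26 above the control siRNA array. Nqo1, a quinone reductase read by 1 probe set, had 7.20 with Y-27632, 8.55 with Mkl1 siRNA, 7.70 with control siRNA and 6.87 with DMSO. Its difference was 0.34 with Y-27632, 0.85 with Mkl1 siRNA and 0.84 between the controls.

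The list of haem and iron genes had 12 genes past the filter. Its median was 0.37 with Y-27632, 0.17 with Mkl1 siRNA and 0.08 between the controls. These medians include Hpx, haemopexin, which passed the filter through the Y-27632 array alone. Hpx had 6.21 with Y-27632, 5.53 with Mkl1 siRNA, 5.40 with control siRNA and 5.45 with DMSO. With Y-27632, 2 of the 12 were at least 2-fold higher, against 1.27% of all genes in that direction. With Mkl1 siRNA 1 was higher, against 1.79% of all genes. Between the controls 1 was higher and 1 lower, against 0.957% and 1.09% of all genes. Hp, haptoglobin, which binds free haemoglobin, had 10.64 with Y-27632, 11.58 with Mkl1 siRNA, 9.75 with control siRNA and 7.002 with DMSO. Fat cells are among its sources. It differed by 3.63, 1.83 and 2.75 in the 3 comparisons. Cp, the ferroxidase ceruloplasmin, had 9.69 with Y-27632, 7.63 with Mkl1 siRNA, 7.16 with control siRNA and 8.29 with DMSO, and stood at 1.40 with Y-27632 and -1.13 between the controls. The 8 Cp probe sets ran from 0.25 to 1.46 with Y-27632 and from -2.34 to -0.12 between the controls. Fth1, the ferritin heavy chain, differed by 0.05 and 0.09 in the treatments, and Hmox2, the constitutive haem oxygenase, by 0.01 and 0.11.

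**Figure D4:**
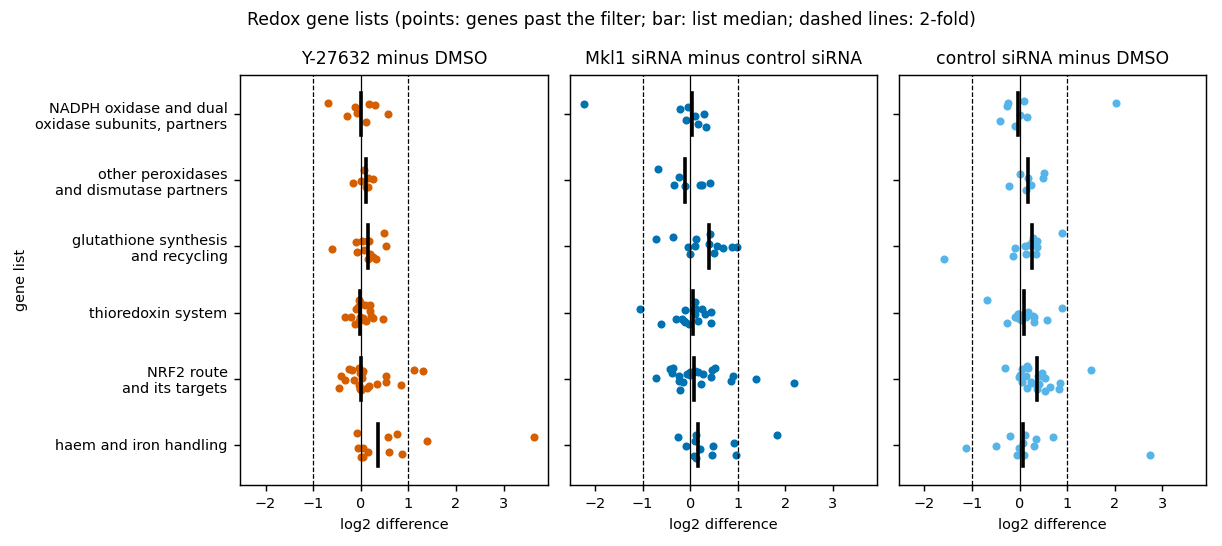
Log2 difference (x axis) of the genes past the filter in 6 redox lists (y axis) in 3 comparisons of 1 array each, where points are genes, black bars list medians and dashed lines 2-fold. The glutathione list has a median of 0.39 with Mkl1 siRNA. The haem and iron list has 0.37 with Y-27632, counting Hpx, which passed the filter through that array alone.

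Over the 79 distinct genes of these lists past the filter, Nox4 left out, 4 were at least 2-fold higher and 0 lower with Y-27632. With Mkl1 siRNA 3 were higher and 1 lower, and between the controls 2 were higher and 2 lower. That is 5.06% of the 79 in each comparison, beside 1.49%, 3.53% and 2.04% of all genes in the order Y-27632, Mkl1 siRNA and controls. Their median was 0.06, 0.11 and 0.15 in that order, furthest from 0 between the control arrays. With the other control array the counts differed. For Y-27632 minus control siRNA, 1 was higher and 1 lower (2.53% of the 79, beside 2.78% of all genes), with a median of -0.06. For Mkl1 siRNA minus DMSO, 8 were higher and 1 lower (11.4%, beside 5.97% of all genes), with a median of 0.19. The treatment comparisons share no array, while the control comparison shares 1 array with each of them. Because the lists were chosen with earlier results known, these shares are a description.

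**Figure D5:**
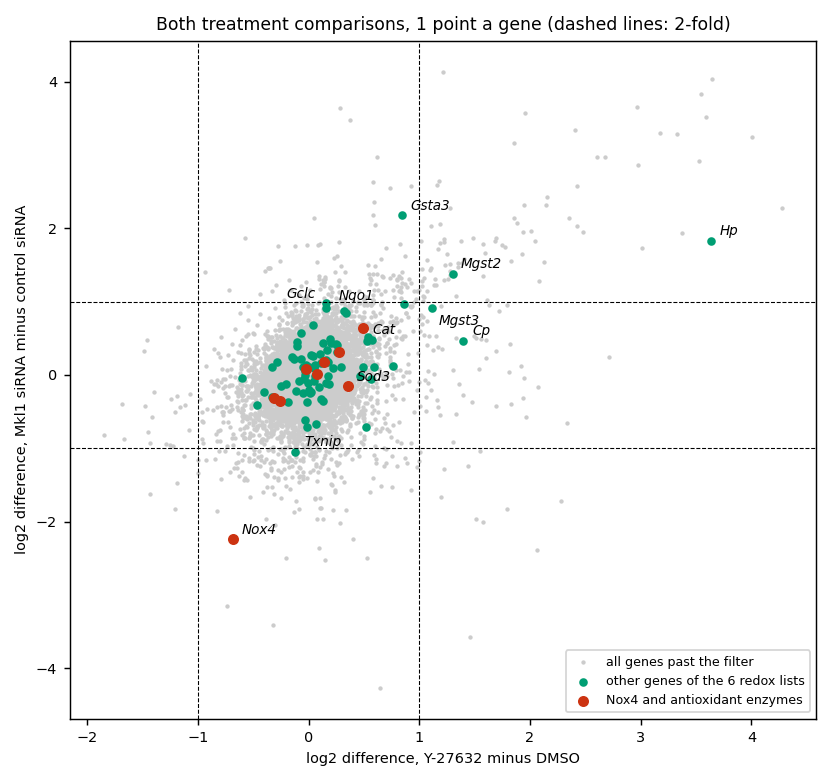
Log2 difference with Mkl1 siRNA minus control siRNA (y axis) against Y-27632 minus DMSO (x axis) for 11600 genes (grey), the redox lists (green) and Nox4 with the enzymes (red), with dashed lines at 2-fold. Nox4 lies at -0.68 and -2.24, Mgst2 is past 2-fold in both, and the 8 enzymes lie inside the central square.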

How the data were processed

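Total RNA of mouse DFAT cells was measured on 4 Affymetrix arrays, 1 per group, with groups taken from the labels. Per the submitters' processing notes the authors used RMA, and the deposited table holds log2 signals (2.02 to 14.6, array medians 5.67 to 5.71). The log base was inferred from that range, and the RMA version is not given in the sources used here. RMA equalises array distributions, which hides differences in total RNA, and compresses those of weak genes.

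Of 45101 probe sets, 34958 had 1 symbol in the platform annotation. For 34754 of these the gene number was found in RefSeq and its symbol, changed or not, was used. The 64 control probe sets were left out. The probe set with the highest mean stood for a gene. Genes under the median signal on every array were dropped. Differences were computed with pandas 2.3.3 and lowess with statsmodels 0.14.6, and tested on simulated data.

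Members and lists were chosen with earlier results of these data known. Named genes were the members, list genes at least 2-fold apart in any of the 3 comparisons, genes with a core role or the highest mean signal per list, Mrtfa and the 6 genes nearest to Nox4. Hmox2, Hpx, Duox1, Cybb, Chac2, Ggt5, Gpx7, Prdx3 and the motifs were chosen after values were seen. Some list genes, such as Nox1 and Prdx6, were not analysed here. Alternatives were the mean of probe sets, leaving out names ending in _s_at, _x_at or _a_at (probes that may bind several transcripts), lowess (span 0.3), median centring, the filter removed or set at 8.08 (75th percentile), 1.5-fold, and the other control array.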

Additional observations from a re-analysis of the deposited data

How the results depend on the processing

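With 1 array a group no leave-one-out was possible. No paired analysis was possible because each group has 1 array. A value was taken as moved when it changed by more than 0.172. For Nox4, with the mean of both probe sets the difference was -0.51 with Y-27632, -1.91 with Mkl1 siRNA and 1.58 between the controls. With the other control array it was -2.70 for Y-27632 and -0.22 for Mkl1 siRNA. Lowess and median centring each moved it by less than 0.172, and the filter settings cannot change the difference of a gene that passes them. Both Nox4 probe sets have names ending in _a_at, so leaving out probe sets that may bind several transcripts gave no Nox4 value, and the count of the 9 genes at least 2-fold apart was then 0 with Mkl1 siRNA and 0 between the controls.

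At 1.5-fold that count was 1 with Y-27632, 2 with Mkl1 siRNA and 3 between the controls. Against the other control array the count was 1 for Y-27632 and 0 for Mkl1 siRNA. Over all genes, 502, 1315 and 872 passed 1.5-fold in the same order, 323 and 692 passed 2-fold with the other control array, and 110 passed with Y-27632 under the filter at the 75th percentile, against 173 in the main setting. Of 154 recomputed values of the 8 enzymes, 18 moved, 12 of them with the other control array. That setting gave a value per enzyme in each treatment comparison, and most of these moved. The 154 include values that could not move, so 18 of 154 does not measure stability. A filter cannot change a gene's difference, and Gpx1, Gpx3 and Hmox1 have a single probe set.

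Recomputing the list medians was added after seeing the data, and 7 of 120 moved. With Y-27632 minus control siRNA they were 0.20 for the oxidase list, -0.15 for other peroxidases, -0.016 for glutathione and -0.17 for the NRF2 route. With Mkl1 siRNA minus DMSO the other peroxidases stood at 0.25. With the mean of probe sets the haem and iron list stood at 0.19 with Y-27632. With those _a_at, _s_at and _x_at probe sets removed, Nox4 among them, the oxidase list stood at -0.21 between the controls. The cause of these moves was not tested. Signals near background, such as the weak probe sets of Sod1 and Sod3 and the weaker Nox4 probe set on the treated arrays, limit what RMA values can show.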
